A study of Mus musculus with 6 samples.

Results

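The stretch of mouse chromosome 2 around Ltk and Spg11 was taken as the named genes with probes in an interval of 8 Mb in the coordinates of the scanner files (mm9), the first probe starting at 117003056 and the last ending at 124934744, apart from a few genes and gene families that the selection left out by name. It holds 112 of the 21249 named genes on the array, measured by 207 probes. The stretch was chosen because genes in it differed between Prss55-/- and wt testis on these same arrays, so the differences below are a description and do not test anything about the stretch. Total testis RNA of 3 Prss55-/- and 3 wt male mice, aged 6 to 8 weeks and of a mixed 129Sv/C57BL/6 strain, was hybridised to 1-colour oligonucleotide arrays, 1 array per mouse. Prss55, a gene for a serine protease of the testis, was disrupted by homologous recombination, and the methods describe intercrosses of heterozygous mice. Which strain each mouse carried along chromosome 2 is not given in the sources used here. No slide carried both genotypes (1 slide for Prss55-/-, 2 for wt), so that slide and genotype cannot be told apart.

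The genes of the stretch are neighbours with many different roles, not a pathway. Ltk encodes a receptor tyrosine kinase related to Alk that responds to small secreted ligands. Spg11 encodes spatacsin, which works with the AP-5 adaptor complex at late endosomes and lysosomes and is mutated in a hereditary spastic paraplegia. Pla2g4e and Pla2g4b belong to the group IV cytosolic phospholipases A2, Bub1b encodes a kinase of the spindle checkpoint, Fsip1 a protein that binds the fibrous sheath of the sperm tail, and Exd1 a protein of the piRNA pathway of germ cells. Germ cells make up most of an adult testis, and whole testis RNA mixes them with Sertoli, Leydig and other cells, so that fewer cells of a type and less RNA per cell cannot be told apart.

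Each array reads a gene through probes of 60 bases, and 30 bases of each probe that the account turns on are shown 5′ to 3′, in lower case throughout because no stretch within them is singled out. They are the probes of Ltk and Pla2g4e, which passed the adjusted threshold and were detected on every wt array and on no Prss55-/- array, the 3 tested probes of Spg11, which did not give 1 answer, both probes of Ccdc32, which differed most from each other among the genes past the threshold read by a pair, and both of Fsip1, which gave the same answer. Read 5′ to 3′, none of the probes of the stretch shares a run of 20 or more bases with a probe of another gene. Some probes of genes on opposite strands overlap in position, as for Zfp106 and Capn3. Whether each lies in an exon, an intron or a UTR was not analysed here.
Ltk, chr2:119577542-119577601, minus strand: aggctgggaaacaggtcactggagggtctt
Pla2g4e, chr2:119992643-119992702, minus strand: tggttgttgagagattaatgacacccaacg
Spg11, chr2:121879563-121879622, minus strand, lower: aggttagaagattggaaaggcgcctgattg
Spg11, chr2:121879343-121879402, minus strand: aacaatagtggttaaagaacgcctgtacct
Spg11, chr2:121919189-121919248, minus strand, dim: ctgaaaaagaaagaagaactgtagactttg
Ccdc32, chr2:118847487-118847546, minus strand, higher: tcttcttatcctctaatcttcagtgccata
Ccdc32, chr2:118843986-118844045, minus strand: atggtttagtgtttgacacaactcttgatt
Fsip1, chr2:118030796-118030855, minus strand: gatggctacttgctaaaatccttgagccag
Fsip1, chr2:118074040-118074099, minus strand: atgacgaggagttgggaaacacaaaaaagt

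Of the 112 genes, 94 were tested, meaning that in Prss55-/- or in wt testis each of the 3 arrays detected a probe of theirs well above its background, and 89 were detected so on all 6 arrays by their brightest tested probe. The remaining 18, among them Dll4, Thbs1, Duox1 and Capn3, were not tested. Values are log2 signals after quantile normalization, a difference is Prss55-/- minus wt on that scale, and the adjusted threshold is a limma p below 0.05 after Benjamini-Hochberg adjustment over every tested probe of the array. With any of its probes, 24 of the 94 genes passed, 12 higher and 12 lower in Prss55-/- testis. Over all 16578 tested named genes 1.56% passed, 0.826% higher and 0.748% lower, and since this contrast chose the stretch nothing is read from the gap. No gene passed in both directions. Counting the brightest probe alone, 19 genes passed, against 1.19% over all. The count of 24 fell to 4 without Prss55-/- mouse 2, 3 without Prss55-/- mouse 3, 6 without wt mouse 1 and 8 without wt mouse 2. It was 10 by the methods' t-test after adjustment. Over all tested named genes 0.151% to 0.501% passed in those fits that left out a mouse, and 0.404% by the methods' t-test. Most of the differences were small: 21 of the 24 genes were below 2-fold by the probe that passed, the smallest at 1.25-fold.

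Along the stretch, the genes past the threshold ran from Fsip1 at 118030796 to Shf at 122179919, a span of 4.15 Mb, with both directions interleaved. Of the 23 pairs of neighbours among the 24 genes, 13 had the same direction. By 1 Mb windows from the start of the stretch, 0 of 4 tested genes passed in the first, then 4 of 18, 7 of 24, 7 of 18, 5 of 17 and 1 of 10, no gene was tested in the seventh, and 0 of 3 passed in the last. Of the 7 tested genes in the first and last of those windows, where limma passed none, 1 and 2 had an unadjusted p below 0.05 and the methods' t-test passed 0 after adjustment. In the 8 Mb before the stretch 0 of 35 tested genes passed in limma and 0 by the methods' t-test after adjustment. There 8, or 22.9%, had an unadjusted limma p below 0.05 by any probe, against 25.5% of all tested named genes. In the 8 Mb after it 4 of 112 passed (Ckap2l, Galk2, Gm14023 and Kcnip3), and on the whole of chromosome 2 outside the stretch 22 of 1176, or 1.87%.

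**Figure D1:**
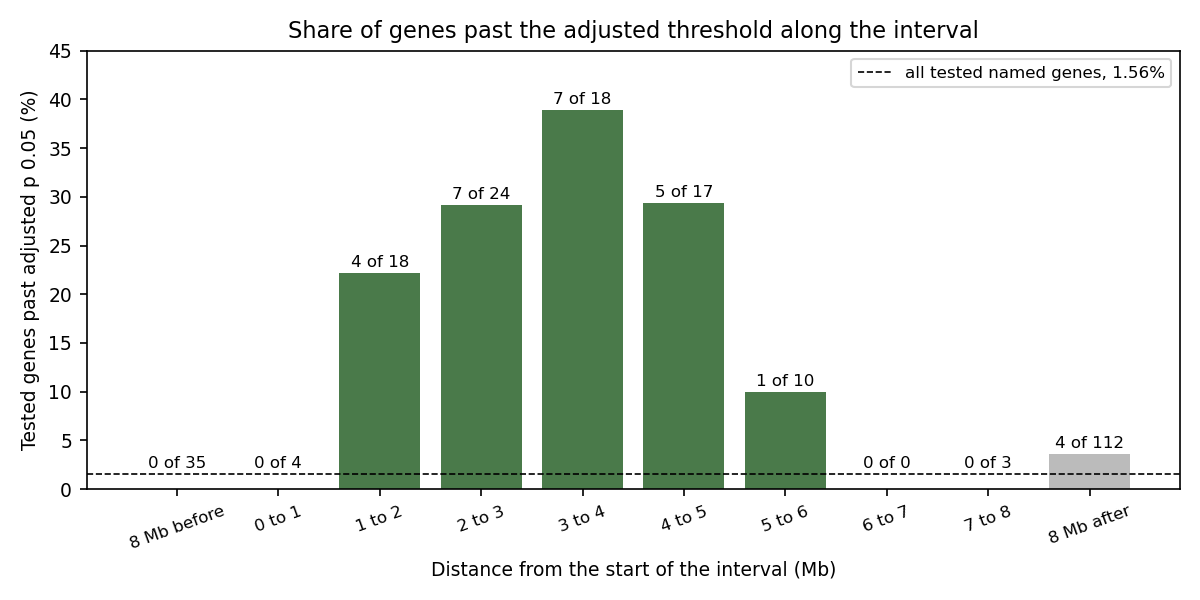
Share of tested genes past the adjusted threshold, in percent, by distance from the start of the stretch in Mb (green, 1 Mb windows) and in the 8 Mb on either side (grey), with the number of genes above each bar and the share over all tested named genes as a dashed line. The windows from 1 to 5 Mb hold 23 of the 24 genes, and the window from 6 to 7 Mb holds no tested gene.

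At the lower limit of the stretch, Spred1 differed by -0.10 just inside and by -0.04 through its other probe just outside. Fam98b, the next gene inward, differed by 0.24 and 0.06, and Tmco5, the next outward, by 0.12. At the upper limit, Myef2 differed by -0.05 and -0.23 and Slc24a5 by -0.03 just inside, against -0.04 and -0.08 for Dut just outside. None of these genes at the limits passed the adjusted threshold, on either side.

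**Figure D2:**
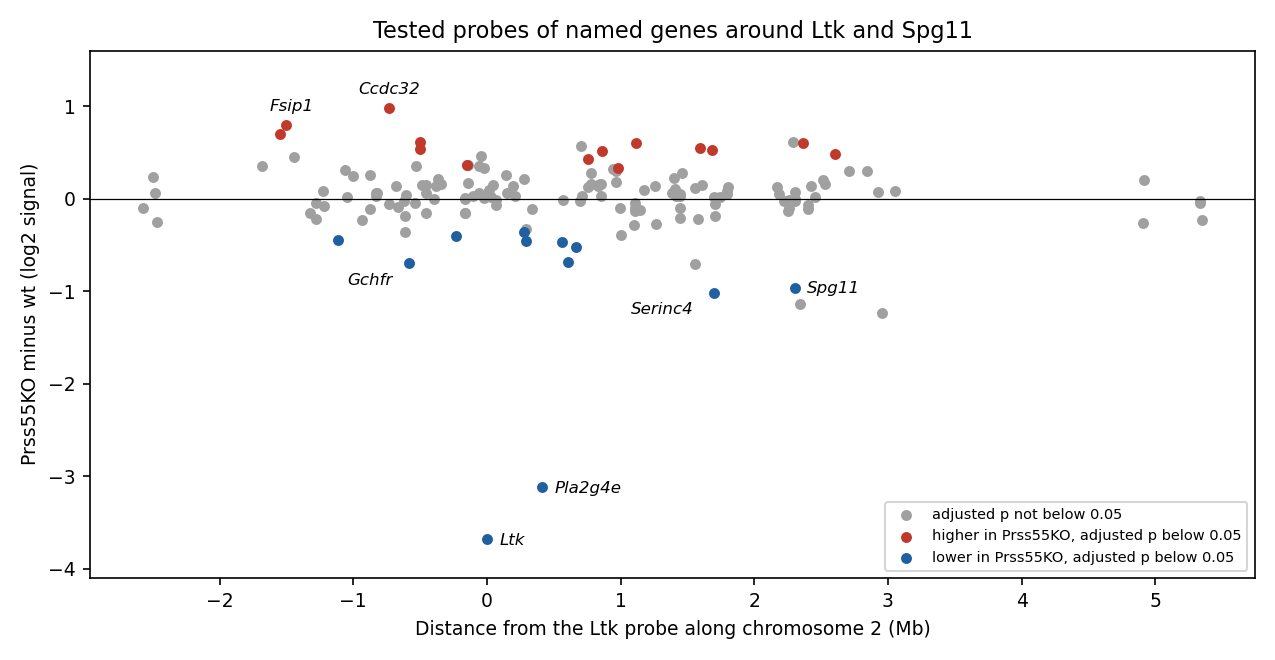
Difference between Prss55-/- and wt testis (log2 signal) of each of the 161 tested probes of the stretch, by distance in Mb from the Ltk probe. Ltk and Pla2g4e lie below -3, the other probes lie between -1.23 and 0.98, and probes past the threshold in either direction lie among others that did not pass.

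Ltk was detected in wt testis and not in Prss55-/- testis. The normalized log2 signal of its probe was 3.41, 3.92 and 3.33 in Prss55-/- testis and 7.31, 7.32 and 7.06 in wt testis. The groups lay 3.14 apart at their nearest values, and the probe was well above background on every wt array and on no Prss55-/- array. The measured difference was -3.68 (SE 0.17), and with the dim signals raised to a floor the level was 4.90-fold lower in Prss55-/- testis. For such floored values, a dim signal was raised to the weakest signal that the scanner software still called detected on that array. Floored values are not strict limits, because undetected signals can lie above the floor. A Map1a probe not detected on any Prss55-/- array read 5.48 in Prss55-/- mouse 2, where the floor was 5.21. They also rest on the processed signal. The normexp background correction used as an alternative added an offset of 50 to every signal, which by itself makes log2 differences between dim signals smaller. With this correction and its offset the differences were -1.35 for Ltk and -0.87 for Pla2g4e, smaller than the floored values. Both still passed the adjusted threshold. The related receptor Alk, the only other tested gene of the list of LTK receptors and ligands, differed by 0.29 (SE 0.053) and did not pass the adjusted threshold.

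Pla2g4e, an enzyme that makes N-acyl phosphatidylethanolamines, was the other gene detected on no Prss55-/- array by the probe that passed. It measured 2.68, 2.68 and 3.05 in Prss55-/- testis and 6.04, 5.83 and 5.87 in wt testis, well above background on the 3 wt arrays alone. The groups did not overlap, and the measured difference was -3.11 (SE 0.12). With the dim signals raised to the floor the level was 1.97-fold lower in Prss55-/- testis. By quantitative RT-PCR, the paper reports a change in Pla2g4e below the fold threshold it used for the arrays. For Ltk it reports a decrease above that threshold. The measured array difference of Pla2g4e, which rests on undetected signals, is therefore not taken as the size of its change. A second Pla2g4e probe was detected on none of the 6 arrays. Its neighbours Pla2g4b, another group IV phospholipase, and Jmjd7, a hydroxylase gene next to it that is known to give a joint transcript with it, were lower as well. Pla2g4b gave -0.46 (SE 0.058) by its brighter probe and -0.32 by the other, which did not pass. Jmjd7 measured 10.01, 10.04 and 10.04 against 10.47, 10.35 and 10.35, without overlap. All 3 tested genes of this list, the phospholipases of the stretch with Jmjd7, were lower past the threshold, but 1 of the 3 passed by the methods' t-test after adjustment, and leaving out 1 array in turn Jmjd7 passed in 0 of 6 fits and Pla2g4b in 2. Pla2g4a and Pla2g4c, which lie elsewhere in the genome, differed by 0.07 and -0.03 and did not pass. Pla2g4a was measured at 8.26 ± 0.092 in Prss55-/- and 8.20 ± 0.035 in wt testis (SD, n = 3 each).

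Spg11 was lower by its brightest probe, with 11.76, 11.72 and 11.77 in Prss55-/- testis against 12.67, 12.79 and 12.69 in wt testis. The spread within each genotype was far below the gap of 0.90 between the nearest values, and the difference was -0.97 (SE 0.053). A probe that starts 220 bases away on the same strand gave 8.52, 8.32 and 8.40 against 8.48, 8.44 and 8.39, where the groups overlapped and the difference was -0.03 (SE 0.066). The third tested probe was well above background on the 3 wt arrays and on no Prss55-/- array. Its measured difference of -1.14 (SE 0.33) did not pass, and with the dim signals raised to the floor the level was 1.57-fold lower. The 3 tested Spg11 probes thus ranged over 1.11 on the log2 scale. Of the 5 other tested genes on the list of spatacsin partners, none passed in limma, 1 had an unadjusted p below 0.05, and the methods' t-test passed none after adjustment. Among them Ap5z1, a subunit of AP-5, differed by -0.05, and Zfyve26, or spastizin, which binds spatacsin, by 0.02. D430042O09Rik, at 0.07, was on that list but is not known as a part of AP-5.

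Vps39 and Ganc were lower by 1 probe only. Vps39 is a subunit of the HOPS complex that tethers late endosomes to lysosomes. It measured 11.23, 11.26 and 11.24 in Prss55-/- and 11.70, 11.70 and 11.76 in wt testis, whereas its second probe differed by -0.01. Ganc, a neutral alpha-glucosidase, differed by -0.52 (SE 0.060) through 1 probe and by -0.02 and 0.03 through the others. The list of endosome, lysosome and traffic genes had 7 tested members, of which Spg11 and Vps39 were lower and none higher. Of its other bright members, Zfyve19 differed by -0.05 and Snap23, a SNARE protein of membrane fusion, by 0.14. Among 13 tested metabolic enzymes and transporters, Gchfr and Ganc were lower and none higher, with Sord, the sorbitol dehydrogenase, at 0.20 and Gatm, an enzyme of creatine synthesis, at 0.30, neither past the threshold.

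Gchfr, the feedback regulator of GTP cyclohydrolase 1, was read by 1 probe with a narrow spread. That probe gave 10.55, 10.59 and 10.56 in Prss55-/- testis and 11.21, 11.30 and 11.27 in wt testis, a difference of -0.69 (SE 0.048). Tmem87a, a membrane protein of the Golgi, differed by nearly the same, -0.68 (SE 0.065), with 6.89, 6.71 and 6.76 against 7.45, 7.52 and 7.43. The genotypes did not overlap in either gene. Serinc4, of the serine incorporator family, measured 6.16, 6.48 and 6.51 in Prss55-/- and 7.49, 7.24 and 7.49 in wt testis. That is 2.03-fold lower, although the files place only 30 of the probe's 60 bases at its position. Bub1b differed by -0.45 (SE 0.061) and Exd1 by -0.41 (SE 0.045), both without overlap.

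Fsip1 had the largest rise seen by more than 1 probe. The probe nearer the lower end of the stretch measured 14.48, 14.48 and 14.55 in Prss55-/- testis and 13.69, 13.90 and 13.81 in wt testis. A probe 43244 bases away measured 11.79, 11.81 and 11.82 against 10.90, 11.11 and 11.03. Both were higher past the threshold, by 0.70 (SE 0.068) and 0.79 (SE 0.066), with no overlap. Spint1, which encodes a Kunitz-type inhibitor of serine proteases on the cell surface, was also higher by both probes, by 0.62 (SE 0.061) and 0.53 (SE 0.048). Its brighter probe read 9.94, 9.78 and 9.80 in Prss55-/- and 9.24, 9.25 and 9.17 in wt testis. Of the 6 tested genes for surface receptors, ligands and adhesion, Spint1 was higher and Ltk lower, and the bright members B2m, the light chain of MHC class I, and Tyro3, a receptor kinase, differed by -0.11 and -0.02.

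Patl2, an RNA-binding protein known from oocytes, measured 7.41, 7.56 and 7.45 in Prss55-/- and 6.88, 6.95 and 6.77 in wt testis, a difference of 0.61 (SE 0.070). Ell3, an elongation factor of RNA polymerase II, differed by 0.52 (SE 0.074). Haus2, a subunit of the augmin complex of the spindle, differed by 0.51 (SE 0.060), and Shf, an SH2 domain adaptor, by 0.49 (SE 0.044). In each of these genes every Prss55-/- mouse lay above every wt mouse. Haus2 and Bub1b were the members that passed, in opposite directions, of 9 tested genes for mitosis, centrosome and DNA repair. The brightest of the others, Trp53bp1, a DNA damage response protein, and Nusap1, a spindle protein, differed by 0.05 and 0.03. Ell3 and Zfp106 were higher of 13 tested genes for transcription, translation and RNA, and none was lower. Neither of the 2 tested ubiquitin enzymes passed in limma, and the methods' t-test passed 0 after adjustment. Both had an unadjusted p below 0.05 by at least 1 probe, as did 25.5% of all tested named genes. Trim69, a RING finger protein, differed by 0.14. Ubr1, a ligase of the N-degron pathway, differed by -0.04 through its brightest probe, with an unadjusted limma p of 0.37. Its other tested probes ranged from -0.13, with an unadjusted limma p of 0.028, to 0.09.

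**Figure D3:**
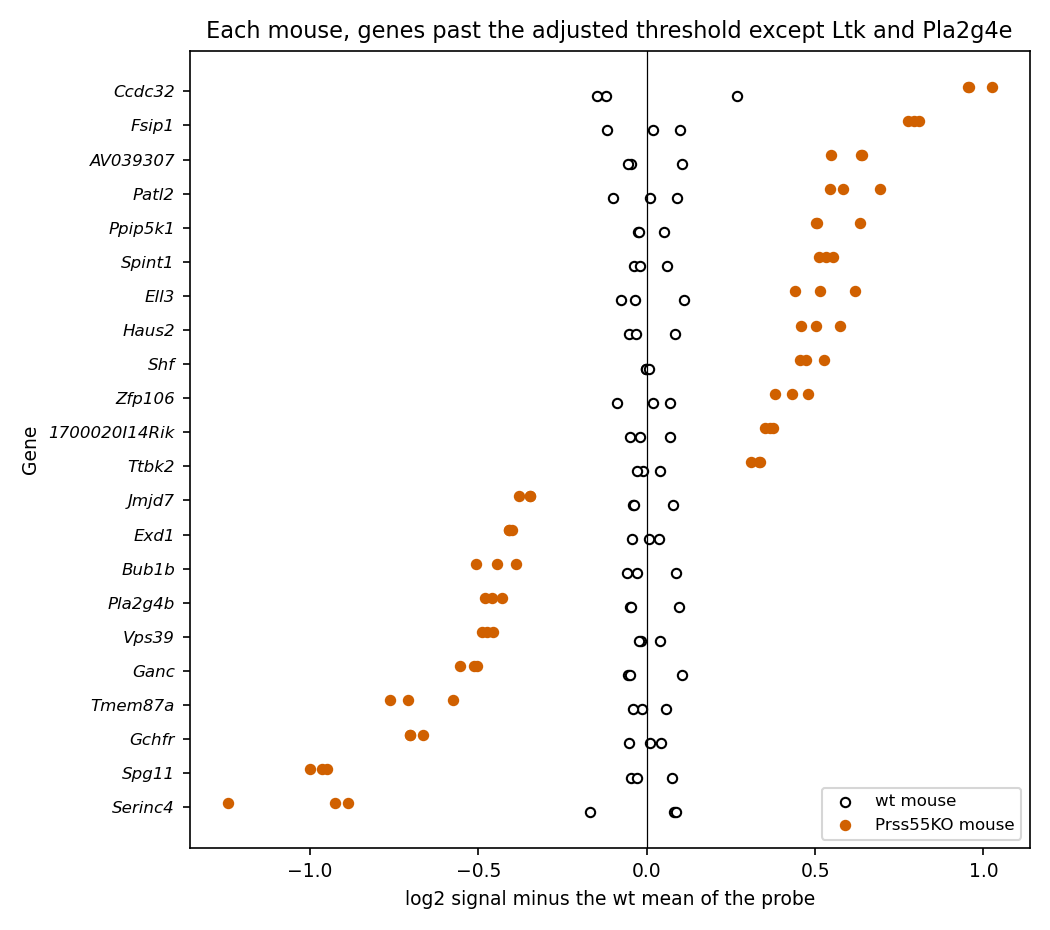
log2 signal of each mouse minus the wt mean of the same probe for 22 of the 24 genes past the adjusted threshold (wt open, Prss55-/- filled, 3 mice each, the probe with the lowest adjusted p). In every gene shown the genotypes are apart, and the 3 mice of a genotype lie together, with wt mouse 2 nearest to the other genotype in Ccdc32.

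Each mouse took the level of its own genotype. For each of the 24 genes every array was placed between the wt and Prss55-/- means, its own value left out of its genotype's mean. All 6 mice were nearer their own genotype in 24 of 24 genes, and the median place was between 94.8% and 111% of the way to the mean of the mouse's own genotype. The lowest single place was 64.0%, of wt mouse 2 in Ccdc32, where its signal was 6.17 against 5.79 and 5.76 in the other wt mice. Since the 24 genes were chosen by this contrast these places are a description, and the other 70 tested genes were not placed. Within genotypes the spread, which the choice of genes did not use directly, was a median SD of 0.069 over the 94 genes and 0.085 over all tested named genes.

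Separate probes of 1 gene often disagreed. Of the 24 genes past the threshold, 12 had 2 or more tested probes, and in 10 of these some probes passed and others did not. In 5 of the 12 the probes had opposite signs. Ccdc32, a coiled-coil protein, measured 6.86, 6.86 and 6.93 in Prss55-/- and 5.79, 6.17 and 5.76 in wt testis by its dimmer probe, a difference of 0.98 (SE 0.12). Its brighter probe, 3501 bases away, measured 10.26, 10.36 and 10.37 against 10.32, 10.45 and 10.38, with overlapping groups and a difference of -0.05. Both probes are printed above, and they give a different answer for the same gene in the same 6 mice.

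Ttbk2, a kinase needed to start cilia, went from 0.33 (SE 0.044), past the threshold, to -0.10 and -0.40 by its other probes, which did not pass. AV039307, a gene of unknown function beside it, gave 0.61 (SE 0.063) by 1 probe and -0.28 by the other. Ppip5k1, an inositol pyrophosphate kinase, gave 0.55 (SE 0.057) at the probe with the highest coordinate, 0.12 at the one with the lowest, and -0.22 between. Zfp106, a zinc finger protein that binds RNA, kept 1 sign, with 0.43 (SE 0.060) by the probe that passed and 0.12 to 0.28 by the other tested probes. The long noncoding RNA 1700020I14Rik, now called Oip5os1, gave 0.36 (SE 0.050) with 0.37 and 0.17 by the probes that did not pass. Fsip1 and Spint1 passed with every tested probe. In the other 10 of these 12 genes passing depended on the probe, though the values could be close, as in 1700020I14Rik, and no difference between probes was tested.

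**Figure D4:**
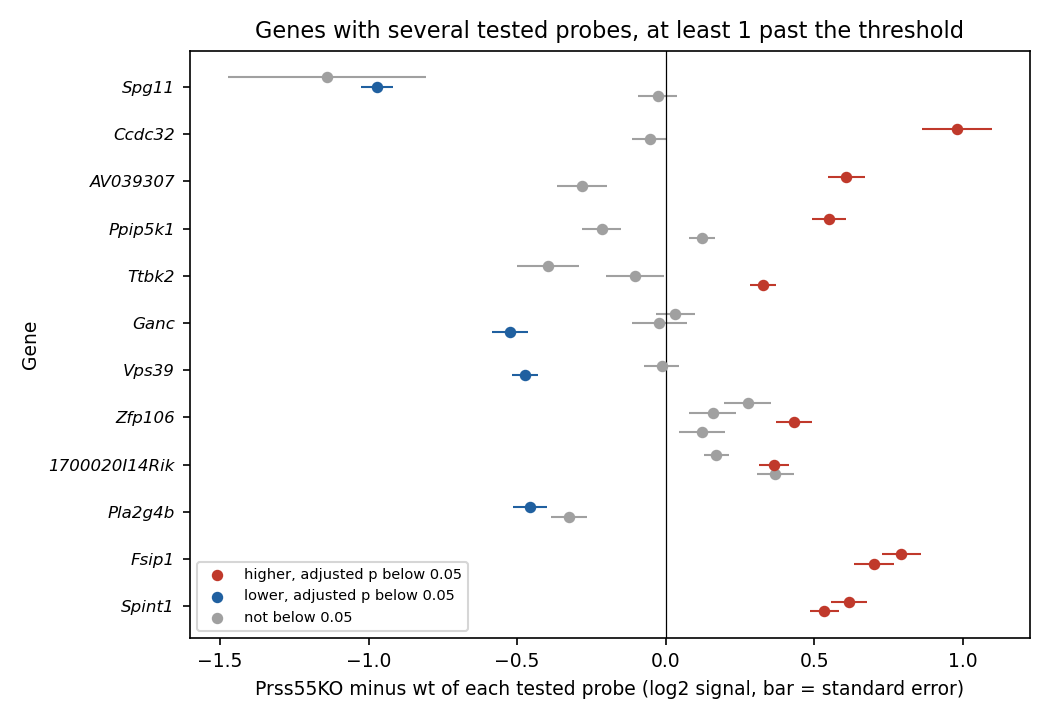
Difference between Prss55-/- and wt testis (log2 signal, bars give the standard error) of every tested probe of the 12 genes with several tested probes and at least 1 past the threshold, each gene's probes stacked by position. Probes of Spg11, Ccdc32, AV039307, Ppip5k1 and Ttbk2 lie more than 0.7 apart, and those of Fsip1 and Spint1 less than 0.1.

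The study's own thresholds were a difference of 2-fold or more with an unadjusted p below 0.05, which 5 genes passed, all of them lower: Ltk, Pla2g4e, Serinc4, Spg11 through its dim probe, and 1700056I18Rik. Pla2g4e and the dim Spg11 probe passed 2-fold through the measured value of undetected signals. With those signals raised to the floor they were 1.97-fold and 1.57-fold lower, which is under 2-fold. Over all tested named genes 0.826% passed these thresholds, 0.41% higher and 0.416% lower. The gene of unknown function 1700056I18Rik measured 5.38, 4.85 and 4.55 in Prss55-/- testis, well above background on 1 of the 3 arrays, and 6.18, 5.82 and 6.48 in wt testis. The groups did not overlap, and with the dim signals raised to the floor the level was 2.04-fold lower. The measured difference of -1.23 (SE 0.25) did not pass the adjusted threshold. With normexp background correction, whose offset makes differences of dim probes smaller, it was -0.42. The genes just short of the adjusted threshold were Ccndbp1, a cyclin D binding protein, at -0.27, 1700054M17Rik, of unknown function, at 0.45, and Map1a, a microtubule-associated protein, at -0.71.

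Taken over its 94 tested genes by the brightest probe, the stretch had no common direction: 57 genes were above 0 and 37 below, and the median difference was 0.04, against -0.0037 over all tested named genes. The median size of a difference was 0.16 in the stretch and 0.092 over all. The arrays of the genotypes did not overlap in 51 genes, or 54.3%, against 28.1% over all tested named genes. Counting any probe of a gene instead of the brightest, 56 genes had an unadjusted limma p below 0.05, or 59.6%, against 25.5%. These shares come from the contrast that chose the stretch and are given for description only.

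Neighbours that start next to each other on opposite strands were compared through the RefSeq starts (GRCm38), which were found for 101 of the genes. Of 7 such pairs with starts within 1000 bases, both genes were tested in 5. In 3 of these 1 gene passed and the other did not: Exd1 differed by -0.41 and Chp1, a calcium-binding protein, by 0.01; Serinc4 by -1.02 and Hypk, a huntingtin-interacting protein, by -0.19; Haus2 by 0.51 and Lrrc57, a leucine-rich repeat protein, by 0.16. Partners are given by their brightest probe. The other tested Chp1 probes differed by -0.15, -0.15 and 0.0015, none past the adjusted threshold. The difference between partners was not tested. Both genes passed in Ttbk2 and AV039307, each through 1 probe, and neither in Zscan29 and Tubgcp4. The bases between the starts are shown 5′ to 3′ on the plus strand for 2 pairs, because the neighbours in 1 of them differed in call and those in the other did not. Capitals mark matches on either strand to GGGCGG (the GC box), CCAAT (the CCAAT box) and TGACGTCA (the cAMP response element), none of which overlap.
Exd1 and Chp1, chr2:119547628-119547706: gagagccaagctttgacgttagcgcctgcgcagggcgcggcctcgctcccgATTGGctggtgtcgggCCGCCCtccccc
Ttbk2 and AV039307, chr2:120850585-120850655: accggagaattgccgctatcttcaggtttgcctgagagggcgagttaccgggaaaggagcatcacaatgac

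The 79 bases between Exd1 and Chp1 held 1 match to GGGCGG, which stretches of the same length before the start hold in 22% of all RefSeq promoters in the table, and 1 match to CCAAT, which 15.1% hold. The 71 bases between Ttbk2 and AV039307 held neither, against 20.7% and 13.3% of promoters at that length. TGACGTCA was in neither stretch and is in 0.989% and 0.907% of promoters. These matches describe the letters only.

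Prss55 itself, on chromosome 14, measured 14.99 ± 0.084 in Prss55-/- and 15.89 ± 0.12 in wt testis (SD, n = 3 each), every Prss55-/- array below every wt array, and its probe was still well above background on all 3 Prss55-/- arrays. Of 33 tested markers in 10 lists of testis and neighbouring cell types none passed in limma, and the methods' t-test passed 0 after adjustment. By any probe, 12 of the 33 had an unadjusted limma p below 0.05, against 25.5% of all tested named genes. The 3 tested Leydig cell markers had a median difference of -0.67. Their summed log2 level was 14.79 to 15.44 in Prss55-/- and 15.45 to 15.63 in wt testis. The 2 tested of 4 epididymis markers summed to 6.55 to 7.85 against 8.81 to 9.02, a gap that came from 1 gene. Rnase10 differed by -2.91 (SE 0.64), with an SD of 1.36 in Prss55-/- testis, and Defb20 by -0.02 (SE 0.10). Crisp1 and Lcn8 were not tested. The part of these cell types in the differences of the stretch was not tested.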

How the data were processed

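Agilent whole mouse genome arrays measured RNA from the testes of 3 mice of each genotype, with 1 dye and 1 array per mouse. The authors deposited the scanner output of Agilent Feature Extraction 10.7, per the labels, whose processed signal is a linear intensity corrected for background within the array. They also deposited a matrix of quantile-normalized log2 values, used here as an alternative. The file headers name the build mm9.

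Control spots were left out, spots flagged as outliers set aside (2 values missing among tested probes) and signals raised to at least 1 before taking log2. Arrays were then quantile-normalized and the spots of each probe averaged. The test ran on 28607 of 41174 probes, those that the 3 arrays of either genotype all detected well above background, in limma 3.58.1 in R 4.3.3 (lmFit, eBayes, two-sided, Benjamini-Hochberg). A gene passed if any of its probes did, and its brightest tested probe stood for it elsewhere. Between 69.5% and 72.9% of spots were well above background, and none were saturated. Each value rests on 3 arrays per genotype, and their number limits its precision. The labels number the mice but do not say whether they came from separate litters, so p-values measure the spread between these mice.

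The genes and lists were chosen with earlier results of these data known. Named in the text were Ltk, Spg11, Pla2g4e, every gene past the adjusted threshold (at most 25), those past 2-fold, the 3 just outside, and at most 4 bright members of each list. Names were matched to RefSeq (109 of 112 genes, 9 under a newer symbol), and start positions and promoter letters come from RefSeq on GRCm38.p6, which was not joined to the mm9 positions. The fit was tested on simulated data. Alternatives changed the normalization, background, filter, test, blocks, arrays, probes and limits of the stretch. Python 3.11.15, pandas 2.3.3 and matplotlib 3.10.9 made the summaries and plots. No exon annotation of mm9 was used here.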

Additional observations from a re-analysis of the deposited data

How the results depend on the processing

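The count of 24 genes past the adjusted threshold was 20 to 25 with 75th percentile scaling, normexp background, the deposited matrix or the stricter filter. It was 19 counting the brightest probe only. With slide as a random block it was 23, but no slide carried both genotypes, so this block could not separate slide from genotype. Limits narrowed by 1 Mb left the count at 24, which was fixed in advance because no gene passed in the windows removed. With no filter, where more probes are tested, the count was 12, against 0.428% over all named genes in that setting. By the methods' t-test after adjustment it was 10, against 0.404% over all tested named genes. The cause was not tested in either case. Leaving out 1 array gave 3 to 25: 4 without Prss55-/- mouse 2, 3 without Prss55-/- mouse 3, 6 without wt mouse 1 and 8 without wt mouse 2. The same 4 took all tested named genes from 259 to between 25 and 83, while leaving out Prss55-/- mouse 1 took them to 657, and the cause was not tested. Ltk, Pla2g4e and Spg11 passed in all 6 fits that left out 1 array, Gchfr in 5, and Fsip1 and Spint1 in 4. The other 18 of the 24 passed in at most 3 of these fits, Bub1b, Serinc4, Ttbk2 and Zfp106 in 1, and Jmjd7 and 1700020I14Rik in 0. The count of 5 genes past 2-fold and the unadjusted p was 1 with normexp background, whose offset makes differences of dim probes smaller. It was also 1 with the stricter filter, which drops probes dim in 1 genotype. Leaving out 1 array it was 3 to 6, with 3 without Prss55-/- mouse 1. With 75th percentile scaling 1 of the 4 genes past these thresholds was higher. By the brightest probe in place of the one that passed, Ccdc32, Ttbk2 and Ganc changed sign, to -0.05, -0.10 and 0.03. No named gene changed sign under the alternatives that were run for single genes, which covered everything else listed here except the narrowed limits. The stricter filter dropped the probes of Ltk, Pla2g4e and 1700056I18Rik, so their signs were not checked there. Of the 25 genes that passed with the stricter filter, 22 were among the 24. The median difference kept its sign in all alternatives that were run.

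The genotypes share replicate numbers, and with the replicate number as a block 2 genes passed the adjusted threshold (Ltk and Pla2g4e), against 12 of all tested named genes. A figure legend of the study describes the mice as pairs of wt and Prss55-/-, but the labels do not say which mice were paired. Deviations of same-numbered mice correlated at -0.054, -0.023 and -0.11, so the numbers were not taken as pairs. Whether the mice were paired in another way was not tested, and nothing is read from the loss of genes with the block.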

Other observations

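The same interval holds 29 probes without a gene name, of which 15 were tested. None passed the adjusted threshold in limma, 7 had an unadjusted p below 0.05, and the methods' t-test passed 0 after adjustment. For all tested named genes, counted by any probe of a gene and not per probe, the share with such an unadjusted p was 25.5%.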
